A study of Mus musculus with 3 samples.

Results

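The ribbon synapse genes described here are 8 listed genes, Bsn, Pclo, Ctbp2, Cacna1f, Cacna2d4, Cabp4, Cplx3 and Cplx4, out of 18545 genes in the expression matrix. They were followed across 2 photoreceptor clusters (1 and 4) and 5 bipolar clusters (2, 3, 6, 7 and 8) of the mouse retina in each of 3 libraries. All 8 genes were in the matrix, and they held 63212 of the 26562184 unique molecular identifiers (UMIs, each standing for 1 captured RNA molecule) in these clusters. The clusters held 8157 of 15242 cells.

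Retinas were taken at 8 weeks of age from mice on the C57BL/6J strain that had been raised in the dark, dissociated with papain and profiled by single-cell RNA sequencing. The 3 groups were wildtype mice on base chow (WT), rd10 mice on the same chow (rd10-vehicle) and rd10 mice on chow with tamsulosin, metoprolol and bromocriptine (rd10-TMB), so the drug mixture was given on the rd10 background alone. Rd10 mice carry a point mutation of the rod phosphodiesterase gene Pde6b and lose rods and later cones, and dark rearing, which the WT mice shared, slows this loss. Of the drugs, bromocriptine is an agonist of D2-like dopamine receptors, whereas metoprolol and tamsulosin are antagonists of the beta-1 and alpha-1 adrenergic receptors. Each group was 1 library of pooled retinas, from 4 mice per the labels and from fewer rd10 mice per the methods of the study. The rd10 pools were female, whereas the WT pool held both sexes per those methods. Cacna1f lies on the X chromosome.

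With 1 library per group there was no replicate, so no test between groups was possible, and every interval below covers counting error only, at 95%. Levels are counts per 1e+06 UMIs of the cells summed (CPM), with exact Poisson intervals. The libraries held 4478 to 5952 cells and 18882951 to 37002532 UMIs. Median UMIs per cell in the 7 clusters ran from 1406 in rd10-vehicle rods to 5548.5 in rd10-TMB cones. The libraries shared 7 to 10 cell barcodes pairwise.

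Cluster names were checked against markers. Cluster 1 carried 8 of 8 rod markers at 2-fold or more over the remaining cells, cluster 4 carried 8 of 8 cone markers, and cluster 2 carried 6 of 6 rod bipolar markers; these are called rods, cones and rod bipolar cells (RBCs) below, in the sense of rod-like, cone-like and RBC-like cells. Cluster 3 carried 4 of 6 ON cone bipolar markers and 3 of 6 OFF markers, and is called ON cone bipolar-like. Clusters 7 and 8 carried 4 and 6 of 6 OFF cone bipolar markers and are called OFF cone bipolar-like. Cluster 6 carried 5 of 6 ON cone bipolar markers but also 5 of 8 amacrine markers, and is called by its number. Its summed amacrine marker level was 2073 CPM in WT against 163 in rd10-vehicle and 128 in rd10-TMB, and none of the 8 amacrine markers was at 0 in these libraries. Cluster 0, with 6 of 6 Müller glia (MG) markers, stood for cells without ribbons. Cluster 11, with 5 of 6 endothelial markers, is called endothelial-like, but its WT cells also held bipolar markers: the 6 ON cone bipolar markers summed there to 932 CPM, against 117 for rd10-vehicle and 127 for rd10-TMB, and the 6 OFF markers to 468 CPM, against 44.9 and 56.4. Clusters 5 and 9, with 7 and 6 of 8 amacrine markers, stood for neurons with conventional synapses.

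Photoreceptors and bipolar cells release glutamate continuously rather than in bursts. Their terminals hold the synaptic ribbon, a plate of protein that tethers vesicles above the active zone, where calcium enters through L-type channels. The ribbon is made mainly of RIBEYE, a product of Ctbp2, and is anchored to the active zone by the large scaffold protein bassoon (Bsn). Piccolo (Pclo) is a related scaffold protein. The calcium channel of photoreceptor terminals has Cacna1f as its pore-forming subunit and Cacna2d4 as an auxiliary subunit, and Cabp4 is a calcium-binding protein that tunes its opening. Complexin 3 (Cplx3) and complexin 4 (Cplx4) bind the membrane fusion machinery of ribbon terminals. Loss of Cacna1f, Cacna2d4 or Cabp4 disturbs transmission from photoreceptors to bipolar cells.

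In the GENCODE annotation of GRCm38 (mm10), the genes lie on 7 chromosomes. Bsn spans chr9:108096022-108190384 on the minus strand and Pclo spans chr5:14514918-14863459 on the plus strand, with longest coding lengths of 11826 and 15204 bases. Ctbp2 spans chr7:132987563-133124354 (minus), Cacna1f chrX:7607083-7635196 (plus), Cacna2d4 chr6:119236526-119352407 (plus) and Cabp4 chr19:4135423-4144033 (minus). Cplx3 spans chr9:57599992-57606281 (minus) and Cplx4 chr18:65955722-65970237 (minus), with coding lengths of 474 and 480 bases.

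The library chemistry captures RNA at the 3′ end, which matters for Ctbp2. The gene has a distal start used by CtBP2, a transcriptional corepressor found in most cells, and an inner start used by RIBEYE. The transcript from the inner start, beginning at position 133015248, has a coding length of 2964 bases, and the distal transcripts that reach the same 3′ end have coding lengths of 1260 and 1335 bases. These transcripts end within 58 bases of each other's 3′ end, so a Ctbp2 UMI cannot be assigned to the ribbon protein or to the corepressor. A same-strand Fgfr2 model of the annotation also covers the 3′ end of Ctbp2. No other member had its 3′ end covered by another gene.

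The 250 bases upstream of the starts that RefSeq gives for GRCm38.p6 are shown for Ctbp2, because its inner start lies next to that of the long transcript, and for Cplx3 and Cacna1f, the members that differed most between libraries in rods. Capitals mark TAATCC or its reverse complement GGATTA, the core of the site bound by the homeodomain factors CRX and OTX2 of photoreceptors and bipolar cells.
Ctbp2, inner start, chr7:133015248-133015497, minus strand: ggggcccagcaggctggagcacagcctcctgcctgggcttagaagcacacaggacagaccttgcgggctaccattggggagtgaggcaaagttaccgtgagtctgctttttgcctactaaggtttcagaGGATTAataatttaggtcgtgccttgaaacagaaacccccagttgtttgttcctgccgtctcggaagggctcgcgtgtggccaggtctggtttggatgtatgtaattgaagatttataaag
Ctbp2, outer RefSeq start, chr7:133081861-133082110, minus strand: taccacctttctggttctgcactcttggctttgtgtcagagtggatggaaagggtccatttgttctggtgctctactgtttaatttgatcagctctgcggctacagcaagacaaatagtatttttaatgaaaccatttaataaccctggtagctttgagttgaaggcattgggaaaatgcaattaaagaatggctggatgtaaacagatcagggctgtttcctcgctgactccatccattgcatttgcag
Cplx3, chr9:57606282-57606531, minus strand: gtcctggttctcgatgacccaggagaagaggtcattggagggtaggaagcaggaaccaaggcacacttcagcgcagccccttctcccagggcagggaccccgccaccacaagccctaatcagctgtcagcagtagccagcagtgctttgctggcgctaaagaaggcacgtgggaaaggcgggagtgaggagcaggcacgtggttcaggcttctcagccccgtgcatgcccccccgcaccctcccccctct
Cacna1f, chrX:7606853-7607102, plus strand: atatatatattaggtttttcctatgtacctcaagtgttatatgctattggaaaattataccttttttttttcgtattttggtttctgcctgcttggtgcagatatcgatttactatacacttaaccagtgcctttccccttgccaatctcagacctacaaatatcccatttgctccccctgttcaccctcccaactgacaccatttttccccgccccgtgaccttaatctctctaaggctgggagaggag
RefSeq windows were found for 5 of the 8 members, 6 windows in all. The motif, searched on both strands, was in 1 of these 6 windows, that of the inner Ctbp2 start, where its last base lies 116 bases before the start. It was in 6.25% of all 32851 such windows. Cabp4, Cacna2d4 and Cplx4 had no window.

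Summed over their clusters, both scaffold genes were more abundant in bipolar cells than in photoreceptors in each library. Bsn was low throughout, at 12.5 to 27.3 CPM in rods and cones and 21.3 to 78.1 CPM in the bipolar clusters. Its summed photoreceptor level was lower than its summed bipolar level by 2.0-fold in WT, 2.86-fold in rd10-vehicle and 1.91-fold in rd10-TMB. The photoreceptor sum pools rods and cones, whose mix differed between libraries. Rods and cones held 1798095 and 1424950 UMIs in WT, 860691 and 2565092 in rd10-vehicle, and 1263763 and 2173051 in rd10-TMB. Folds of such sums are therefore not compared between libraries here or below. Cones were the lowest cluster for Bsn in each library by point value, with a gap to the next cluster beyond counting error in WT alone. Pclo was at 146 to 209 CPM in rods and cones, 211 to 242 CPM in RBCs and 277 to 364 CPM in clusters 3, 6, 7 and 8. These ranges span the libraries, and RBCs were not always apart from rods. In WT the log2 difference of RBCs and rods for Pclo was 0.01 (-0.19 to 0.22). For Bsn it was 0.50 (-0.17 to 1.36) in rd10-vehicle and 0.09 (-0.54 to 0.79) in rd10-TMB. Cluster 7 was the highest for Pclo in WT and rd10-TMB and cluster 8 in rd10-vehicle, but none of the 3 leading neighbours in the order differed beyond counting error in any library. MG held 1.55 to 2.11 CPM of Bsn and 15.5 to 25.3 CPM of Pclo. The amacrine clusters 5 and 9 held 47.8 to 152 CPM of Bsn and 208 to 527 CPM of Pclo.

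Ctbp2 was present in each of the 7 clusters at 166 to 456 CPM. By point value it was lowest in rods in each library, at 166 CPM (95% interval 148 to 186) in WT, 207 (178 to 240) in rd10-vehicle and 184 (161 to 209) in rd10-TMB. The gap to the next cluster passed counting error in WT alone. Ctbp2 was highest in the OFF cone bipolar-like cluster 7 in each library, at 375 CPM (324 to 433), 372 (317 to 433) and 456 (390 to 530). The lead of cluster 7 over cluster 8 passed counting error in rd10-TMB alone, with a log2 difference of 0.63 (0.32 to 0.94). Ctbp2 was also the most abundant member in MG. MG held 68.7 to 75.9 CPM and the endothelial-like cluster 67.6 to 117.5 CPM, which includes any corepressor transcript.

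The channel genes followed different patterns. Cacna1f, the pore subunit, lay in overlapping ranges in photoreceptor and bipolar clusters, at 86.0 to 137 CPM and 52.4 to 168 CPM. The level summed over both photoreceptor clusters was above that summed over the bipolar clusters, with log2 differences of 0.53 (0.33 to 0.73) in WT, 0.28 (0.08 to 0.48) in rd10-vehicle and 0.21 (0.01 to 0.41) in rd10-TMB, but RBCs hold many of the bipolar UMIs and were low. Its level was 137 CPM (120 to 155) in WT rods, 86.0 (67.5 to 108) in rd10-vehicle rods and 120 (102 to 141) in rd10-TMB rods. In cones it was 107, 106 and 93.4 CPM in the same order of libraries, and in RBCs 76.8, 67.7 and 66.7 CPM. Cluster 3 held 109, 108 and 107 CPM, cluster 6 52.4, 80.0 and 97.9, cluster 7 111, 80.6 and 168, and cluster 8 101, 95.05 and 94.9, so that rd10-TMB cones lay below each of these clusters and rd10-vehicle rods below clusters 3 and 8, by point value. The leading cluster for Cacna1f changed with the library: rods led in WT, cluster 3 in rd10-vehicle and cluster 7 in rd10-TMB. It passed its neighbour beyond counting error in rd10-TMB alone. MG held 4.52 to 6.94 CPM of Cacna1f, and clusters 5 and 9 held 0 to 26.5 CPM.

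Cacna2d4, the auxiliary subunit, was higher in summed bipolar cells than in summed photoreceptors, by 1.67-fold in WT, 2.05-fold in rd10-vehicle and 1.8-fold in rd10-TMB. The photoreceptor sum was 155 CPM in WT and 143 in rd10-vehicle, although rods and cones were each higher in rd10-vehicle by point value. The mix of rods and cones in the sum differed between these libraries. Cones were the lowest cluster in each library, at 120, 126 and 105 CPM in WT, rd10-vehicle and rd10-TMB. Rods were intermediate at 184, 196 and 210 CPM. RBCs held 273, 286 and 258 CPM and cluster 3 held 315, 291 and 295 CPM. Cluster 3 led in WT and rd10-TMB, ahead of RBCs by a log2 difference of 0.21 (0.01 to 0.41) and 0.19 (0.01 to 0.37). In rd10-vehicle cluster 6 led, ahead of cluster 3 by 0.33 (0.10 to 0.56). MG held 8.70 to 10.5 CPM, and clusters 5 and 9 held 6.62 to 58.5 CPM.

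Cabp4 was found mainly in photoreceptors. It was at 475 CPM (444 to 508) in WT rods, 469 (425 to 517) in rd10-vehicle rods and 456 (419 to 495) in rd10-TMB rods. In cones it was at 551 CPM (513 to 591), 451 (425 to 477) and 422 (396 to 451). Cones led rods in WT by a log2 difference of 0.21 (0.07 to 0.36), while in both rd10 libraries rods and cones did not differ beyond counting error. The bipolar clusters held 4.75 to 33.6 CPM, and summed photoreceptors were above summed bipolar cells by 37.7-fold in WT, 42.1-fold in rd10-vehicle and 37.6-fold in rd10-TMB. MG held 11.7 to 16.6 CPM. In 14 of 15 pairs of bipolar cluster and library the level was not above that of MG in the same library, and these values are read as background. The remaining pair was cluster 7 of rd10-vehicle, where 15 UMIs gave 33.6 CPM (18.8 to 55.4).

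**Figure D1:**
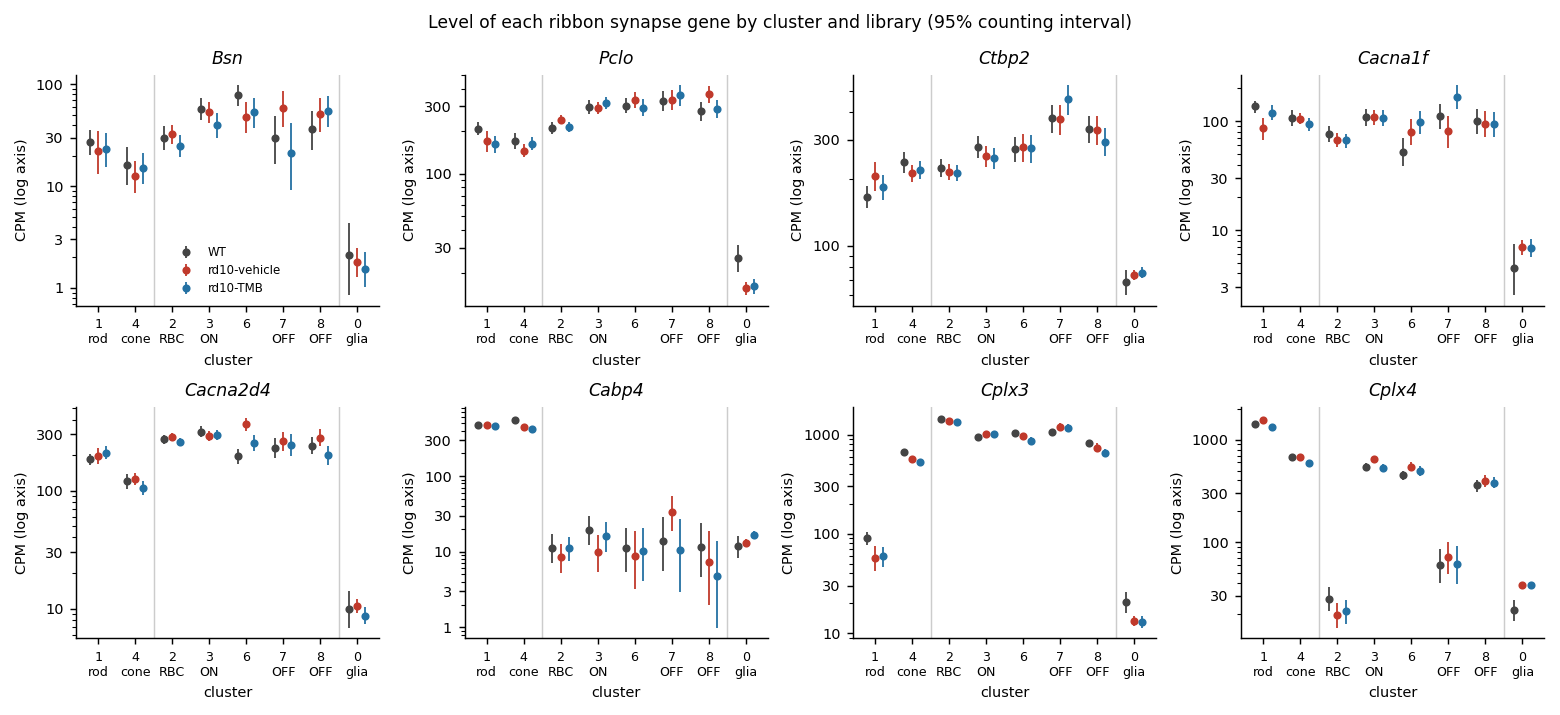
Level of each ribbon synapse gene (CPM, log axis) by cluster and library; points are sums over the cells of a cluster, bars are exact 95% Poisson intervals, and the grey lines part photoreceptors, bipolar cells and MG. Cabp4 lay at 422 to 551 CPM in rods and cones and near the MG level in bipolar clusters, whereas Cplx3 and Cplx4 ran in opposite order in rods and RBCs.

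The complexins ran in opposite order in rods and RBCs. Cplx4 was highest in rods in each library, with a WT level of 1434 CPM, an rd10-vehicle level of 1551 and an rd10-TMB level of 1340, and rods were ahead of cones beyond counting error in each, by a log2 difference of 1.09, 1.18 and 1.18. Among the 7 clusters Cplx3 was highest in RBCs in each library, at 1419, 1384 and 1324 CPM, ahead of cluster 7 beyond counting error. The amacrine cluster 9 held 1206, 2931 and 2718 CPM of Cplx3 in WT, rd10-vehicle and rd10-TMB, and cluster 5 held 525, 258 and 247 CPM. Rods were the lowest cluster for Cplx3, at 90.1 CPM (76.8 to 105) in WT, 56.9 (42.1 to 75.3) in rd10-vehicle and 59.3 (46.7 to 74.4) in rd10-TMB, which was 4.36-fold, 4.37-fold and 4.63-fold the MG level. Rods also held more transcript of RBC markers than MG: the 6 rod bipolar markers, none at 0, summed to 351, 308 and 388 CPM in rods of WT, rd10-vehicle and rd10-TMB and to 59.0, 70.4 and 74.98 CPM in MG, and their part in the Cplx3 level of rods was not tested. RBCs were the lowest cluster for Cplx4, at 28.0, 19.5 and 21.1 CPM, and these levels were not above those of MG (21.7, 38.1 and 37.8 CPM).

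Cones and cone bipolar cells carried transcripts of both genes, with Cplx4 low in cluster 7. Cones held 669.5 CPM of Cplx3 and 672 CPM of Cplx4 in WT, 569 and 683 in rd10-vehicle, and 526 and 591 in rd10-TMB. Clusters 3, 6 and 8 held 649 to 1045 CPM of Cplx3 and 358 to 651 CPM of Cplx4. The OFF cone bipolar-like cluster 7 held 1049 to 1204.5 CPM of Cplx3 but only 59.6 to 71.6 CPM of Cplx4, 1.69-fold to 2.80-fold the MG level. The pair of OFF cone bipolar-like clusters differed in Cplx4, with cluster 8 at 358 to 393 CPM.

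Since each captured molecule gives 1 tag whatever the length of the transcript, Cplx3 and Cplx4 UMIs could be set against each other within a cluster. Cplx3 made up 5.91% of their sum in WT rods, 3.54% in rd10-vehicle rods and 4.24% in rd10-TMB rods. In cones the share was 49.9%, 45.5% and 47.1%. In RBCs it was 98.1%, 98.6% and 98.4%, and in cluster 7 94.6%, 94.4% and 95%. The order of rods, cones, mixed bipolar clusters, cluster 7 and RBCs was thus the same in each library. The WT share was above the rd10-vehicle share, with exact binomial intervals that did not overlap, in rods (5.06 to 6.86 against 2.63 to 4.65), in cones (47.7 to 52.2 against 43.7 to 47.2) and in cluster 6 (67.4 to 72.4 against 60.7 to 66.7). Without the cells that held a UMI of Tfap2a, Tfap2b, Gad1, Gad2 or Slc32a1, markers of amacrine cells, the rod intervals were still apart (4.92 to 6.86 against 2.66 to 4.70), the cone intervals overlapped (47.3 to 52.1 against 44.0 to 47.5), and the order in cluster 6 turned, with 59.5% (56.3 to 62.7) in WT and 63.0% (60.0 to 66.1) in rd10-vehicle. In all cells, the rd10-TMB intervals overlapped those of WT in rods (3.35 to 5.29) and cones (45.1 to 49.1) but not in cluster 6 (60.4 to 66.6).

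**Figure D2:**
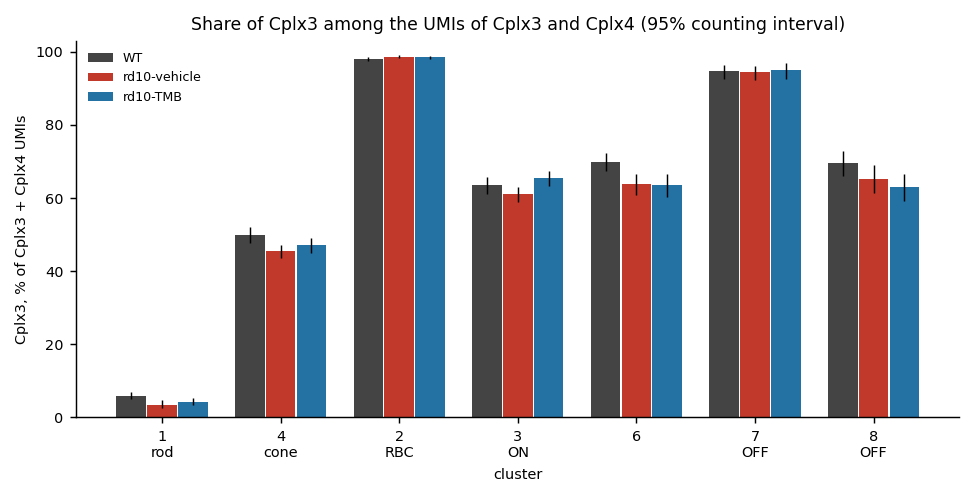
Share of Cplx3 among Cplx3 and Cplx4 UMIs (percent) by cluster and library, with exact 95% binomial intervals. The share was under 6% in rods, 45.5% to 49.9% in cones, 61.0% to 70.0% in clusters 3, 6 and 8, and above 94% in cluster 7 and RBCs.

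Shares of cells with at least 1 UMI were compared after each cell was thinned to 1000 UMIs, since depth differed between clusters. Thinning left out 226 of 1180 WT rods, and 68 of 556 and 80 of 746 rods of rd10-vehicle and rd10-TMB. Cplx4 was then seen in 75.4%, 71.9% and 69.1% of rods in WT, rd10-vehicle and rd10-TMB, and in 1.66% to 3.74% of RBCs. Cplx3 was seen in 73.8%, 73.7% and 68.5% of RBCs and in 5.33% to 7.44% of rods. Cabp4 was seen in 34.5% to 44.0% of rods and cones and in 0% to 4.17% of cells of the bipolar clusters. Before thinning, Cplx4 was seen in 81.2% to 83.8% of rods and Cabp4 in 75.5% to 91.0% of cones.

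The background in MG, whose median depth was 6300 to 9454.5 UMIs before thinning, was 2.85% to 3.13% for Cplx4, 0.98% to 2.28% for Cplx3 and 0.95% to 1.68% for Cabp4 at 1000 UMIs. The endothelial-like cluster of WT, which also held the bipolar markers given above, had Cplx3 in 22.2% and Pclo in 17.0% of thinned cells, against 3.85% to 4.00% and 3.85% to 6.00% in the rd10 libraries, and is not used as background. No UMI of any of the 8 genes was seen in 2.84% to 16.5% of thinned cells of the 7 clusters, against 85.6% to 86.0% of MG. A thinned cell of the 7 clusters held 1.37 to 2.01 different members on average, and no cell held more than 6.

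**Figure D3:**
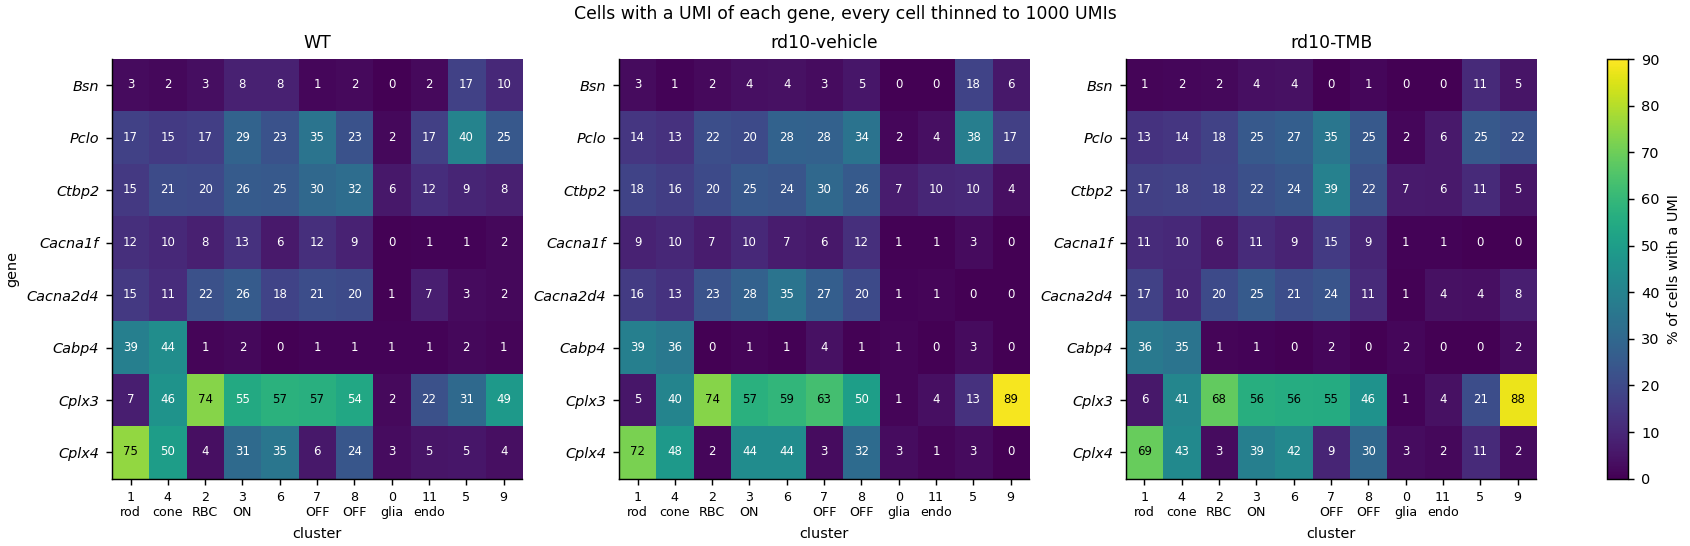
Percent of cells with at least 1 UMI of each gene by cluster, in panels by library, with every cell thinned to 1000 UMIs and shallower cells left out. Cabp4 is confined in these panels to clusters 1 and 4 apart from shares of at most 4.17%, and Cplx3 is seen in up to 88.7% of cells of the amacrine cluster 9.

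The 3 libraries were then compared within each cluster. A gene was called where its CPM differed by at least 1.5-fold either way and the exact interval of the ratio left out no change, provided that the gene had 20 UMIs or more in the pair of libraries together. This is a limit of size and counting error, not a test. Of 56 pairs of member and cluster, 54 had enough UMIs for rd10-vehicle over WT, and 5 of them were called, where 7.58% of all pairs of gene and cluster were called. For rd10-TMB over WT 3 of 53 were called, against 7.17% of all pairs, and for rd10-TMB over rd10-vehicle 2 of 53, against 3.56%. These counts are near the background and are not read as a result about the members. The comparisons share libraries and are therefore not independent of each other. Summed cells cannot tell a change in each cell from a change in which cells were captured, and so a changed level here is one of the sum.

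In rods, 2 of 8 members were called for rd10-vehicle over WT, where 10.9% of all genes were called, 1 of 8 for rd10-TMB over WT, against 9.91% of all genes, and 0 of 8 for rd10-TMB over rd10-vehicle, against 4.73%. Cacna1f was lower in rd10-vehicle than in WT by 1.58-fold, a log2 ratio of -0.66 (-1.07 to -0.29). In rd10-TMB it lay between the other libraries, with a log2 ratio of -0.18 (-0.49 to 0.11) to WT and 0.47 (0.07 to 0.91) to rd10-vehicle. Cplx3 was lower in both rd10 libraries, with log2 ratios of -0.64 (-1.15 to -0.19) and -0.59 (-1.02 to -0.20) and no difference beyond counting error between them, 0.05 (-0.48 to 0.61). Cplx3 was also higher in WT in MG, at 20.5, 13.2 and 12.9 CPM in WT, rd10-vehicle and rd10-TMB. With the MG level of the same library subtracted, the log2 ratios of Cplx3 in rods were -0.65 for rd10-vehicle over WT and -0.57 for rd10-TMB over WT, the latter no longer 1.5-fold.

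The other members of rods differed by less than 1.5-fold. Ctbp2 was higher in rd10-vehicle than in WT, with a log2 ratio of 0.32 (0.04 to 0.59). Cplx4 was higher in rd10-vehicle than in WT, with 0.11 (0.02 to 0.21), and lower in rd10-TMB than in WT, with -0.10 (-0.19 to -0.01), and than in rd10-vehicle, with -0.21 (-0.31 to -0.11). Cabp4 had log2 ratios of -0.02 (-0.19 to 0.16) and -0.06 (-0.21 to 0.09) to WT, the narrowest intervals around no change among the channel genes. Pclo was at 209, 170 and 162 CPM in WT, rd10-vehicle and rd10-TMB, with intervals of the ratio to WT that left out no change but folds under 1.5, and at 25.3 CPM in WT MG against 15.5 in rd10-vehicle MG. The median log2 ratio over the 8 members was -0.14 for rd10-vehicle over WT, where the median of all genes was -0.05, and -0.14 for rd10-TMB over WT, where it was -0.07. WT rods also held more amacrine transcript: the 8 amacrine markers summed to 185 CPM in WT, 34.9 in rd10-vehicle, with 2 markers at 0, and 35.6 in rd10-TMB, with 4 at 0. Without the cells that held a UMI of Tfap2a, Tfap2b, Gad1, Gad2 or Slc32a1, which left 1015 of 1180 WT rods, Cplx3 had a log2 ratio of -0.61 (-1.13 to -0.15) for rd10-vehicle over WT and -0.57 (-1.01 to -0.17) for rd10-TMB over WT, the latter no longer 1.5-fold. Cacna1f had -0.72 (-1.14 to -0.35) without these cells, and -0.73 (-1.19 to -0.30) against the WT rods with a UMI of Xist and none of a Y-linked gene. It was no longer called in cells with at least 1000 genes, at -0.58 (-1.36 to 0.06), and at -0.56 (-1.11 to -0.08) after thinning to 1000 UMIs. The call of Cplx3 for rd10-vehicle over WT was lost with median-of-ratios size factors (-0.57), a mean over cells (-0.55), removal of the 5% of cells with the most UMIs (-0.52) and thinning (-0.51, with an interval up to 0.09), and the ratio was -1.22 in cells with at least 1000 genes. For rd10-TMB over WT the Cplx3 call held in 5 of 13 settings, with ratios from -0.86 to -0.36.

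In cones no member was called, 0 of 8 in each comparison, against 6.98%, 6.92% and 3.36% of all genes for rd10-vehicle over WT, rd10-TMB over WT and rd10-TMB over rd10-vehicle. Smaller differences passed counting error. Cabp4 was lower than in WT, with log2 ratios of -0.29 (-0.42 to -0.16) in rd10-vehicle and -0.38 (-0.52 to -0.24) in rd10-TMB, and Cplx3 likewise, with -0.24 (-0.35 to -0.12) and -0.35 (-0.47 to -0.22). Cplx4 was lower in rd10-TMB than in either other library, with log2 ratios of -0.19 (-0.31 to -0.06) to WT and -0.21 (-0.31 to -0.10) to rd10-vehicle. Müller glia markers, none at 0, summed to 105 CPM in WT cones, 369 in rd10-vehicle cones and 347 in rd10-TMB cones, and the median mitochondrial share of a cone was 8.77%, 10.2% and 10.3%. Their part in these differences was not tested. All 8 members lay below WT in rd10-TMB cones, with a median log2 ratio of -0.19, where 55.6% of all genes lay below 0 and their median was -0.05.

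In RBCs and the ON cone bipolar-like cluster 3 no member was called, and at the background shares given here 0 of 8 is not read as a difference from all genes. In RBCs 0 of 8 members were called in each comparison, against 5.62%, 4.87% and 3.06% of all genes in the same order. The abundant Cplx3 had log2 ratios of -0.04 (-0.11 to 0.04) in rd10-vehicle and -0.10 (-0.17 to -0.03) in rd10-TMB. Cplx4, at background in RBCs, had -0.52 (-1.10 to 0.05) in rd10-vehicle. In cluster 3, 0 of 8 were called in each comparison, against 8.34%, 7.88% and 3.31% of all genes. Cplx4 was higher in rd10-vehicle, at 651 CPM, than in WT (541.5) and rd10-TMB (536), with log2 ratios of 0.27 (0.12 to 0.42) over WT and -0.28 (-0.43 to -0.14) for rd10-TMB over rd10-vehicle. Bsn had a log2 ratio of -0.53 (-1.10 to 0.02) in rd10-TMB over WT, with an interval that just includes no change. Cabp4, at background there, had 14 to 21 UMIs and a log2 ratio of -0.97 (-2.09 to 0.05) for rd10-vehicle over WT.

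Cluster 6 had the most calls. For rd10-vehicle over WT 3 of 7 members with enough UMIs were called, against 10.4% of all genes, for rd10-TMB over WT 1 of 7, against 10.6%, and for rd10-TMB over rd10-vehicle 0 of 7, against 3.49%. Cacna2d4 was at 195 CPM (167 to 226) in WT, 365 (321 to 413) in rd10-vehicle and 253 (217 to 294) in rd10-TMB, so rd10-vehicle was highest with an interval apart from both. Cacna1f was at 52.4 CPM (38.5 to 69.7), 80.0 (60.3 to 104) and 97.9 (76.0 to 124), and Bsn at 78.1 CPM (60.9 to 98.7), 48.0 (33.1 to 67.4) and 53.3 (37.5 to 73.4). Their log2 ratios for rd10-vehicle over WT were 0.90 (0.62 to 1.19), 0.61 (0.02 to 1.20) and -0.68 (-1.35 to -0.09). For rd10-TMB over WT the member called was Cacna1f, with 0.89 (0.34 to 1.47).

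The WT cells of cluster 6 carried Tfap2b at 905 CPM and Gad1 at 456 CPM, against 72.7 and 27.6 in rd10-vehicle and 64.8 and 21.6 in rd10-TMB. Cells with a UMI of Tfap2a, Tfap2b, Gad1, Gad2 or Slc32a1 were therefore left out, which kept 124 of 177 cells from WT, 175 of 180 from rd10-vehicle and 147 of 152 from rd10-TMB. No member of cluster 6 was then called in either rd10 library against WT, where the share of all genes called went from 10.4% to 4.57% for rd10-vehicle and from 10.6% to 4.61% for rd10-TMB. The log2 ratio for rd10-vehicle over WT became 0.40 (0.11 to 0.70) for Cacna2d4, 0.19 (-0.42 to 0.82) for Cacna1f and -0.34 (-1.08 to 0.39) for Bsn. The WT level of Cacna2d4 went from 195 to 282 CPM and that of Cplx4 from 448.5 to 627 CPM, above the 553 and 504 CPM of rd10-vehicle and rd10-TMB, so that rd10-vehicle was no longer above WT for Cplx4, with a log2 ratio of -0.18 (-0.40 to 0.03). For rd10-TMB over WT the log2 ratio of Cacna2d4 went from 0.38 (0.07 to 0.69) to -0.12 (-0.44 to 0.19) and that of Cacna1f to 0.54 (-0.02 to 1.15). The log2 ratio of Cacna2d4 for rd10-TMB over rd10-vehicle was -0.52 (-0.81 to -0.24) in all cells and -0.52 (-0.81 to -0.24) without the amacrine-marked cells.

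**Figure D4:**
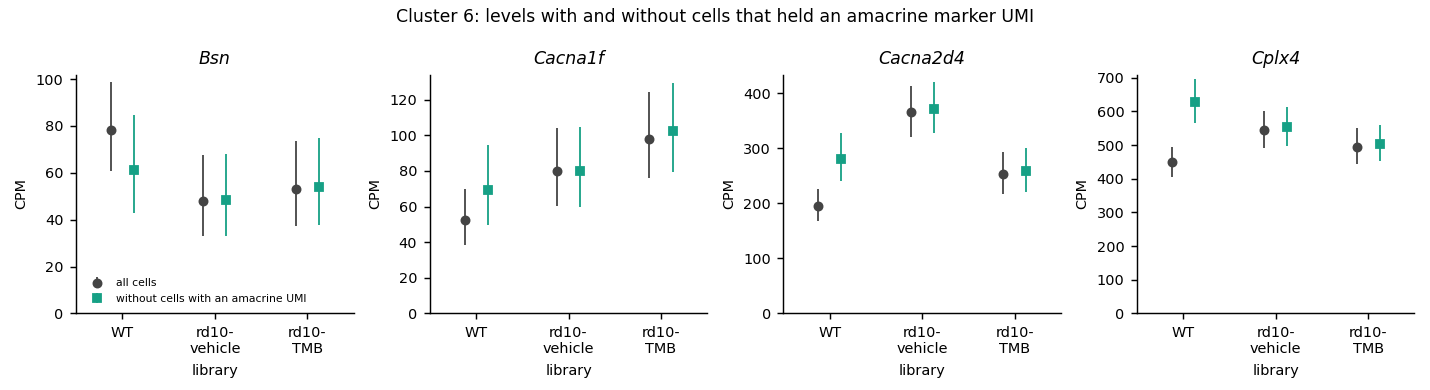
Levels (CPM) of Bsn, Cacna1f, Cacna2d4 and Cplx4 in cluster 6 by library, for all cells and without cells with a UMI of an amacrine marker; bars are exact 95% Poisson intervals. The WT points move most, as for Cplx4 from 448.5 to 627 CPM.

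The OFF cone bipolar-like clusters were small, with 128 to 178 cells in cluster 7 and 130 to 149 in cluster 8. In cluster 7, 0 of 8 members were called for rd10-vehicle over WT, against 5.73% of all genes, 1 of 7 for rd10-TMB over WT, against 5.76%, and 2 of 7 for rd10-TMB over rd10-vehicle, against 3.83%. Cacna1f was at 111 CPM (84.0 to 144) in WT, 80.6 (56.5 to 112) in rd10-vehicle and 168 (129 to 215) in rd10-TMB, from 56, 36 and 63 UMIs. The log2 ratio of rd10-TMB over rd10-vehicle was 1.04 (0.45 to 1.69), and that over WT 0.59 (0.05 to 1.14). Without cells with an amacrine UMI the latter was 0.47 (-0.09 to 1.04) and was no longer called. Nor was it called against the WT cells with a UMI of Xist and none of a Y-linked gene, at 0.13 (-0.49 to 0.82), or after removal of cells above 10% mitochondrial UMIs, at 0.29 (-0.44 to 0.98). The same mitochondrial limit also ended the call of Cacna1f for rd10-TMB over rd10-vehicle, at 0.67 (-0.12 to 1.48). Bsn had 26 UMIs in rd10-vehicle against 8 in rd10-TMB, a log2 ratio of -1.33 (-2.80 to -0.26). It was no longer called in cells with at least 1000 genes, at -1.05 (-2.53 to 0.08), after thinning to 1000 UMIs or at a minimum of 100 UMIs. In cluster 8, 0 of 7 members were called in each comparison, against 4.37%, 3.61% and 3.35% of all genes. There Pclo was at 277, 364 and 286 CPM and Cacna2d4 at 241, 281 and 199 CPM in WT, rd10-vehicle and rd10-TMB, with log2 ratios of rd10-TMB over rd10-vehicle of -0.34 (-0.64 to -0.05) and -0.50 (-0.85 to -0.15). For rd10-vehicle over WT they were 0.39 (0.09 to 0.70) for Pclo and 0.23 (-0.11 to 0.56) for Cacna2d4, the latter within counting error.

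**Figure D5:**
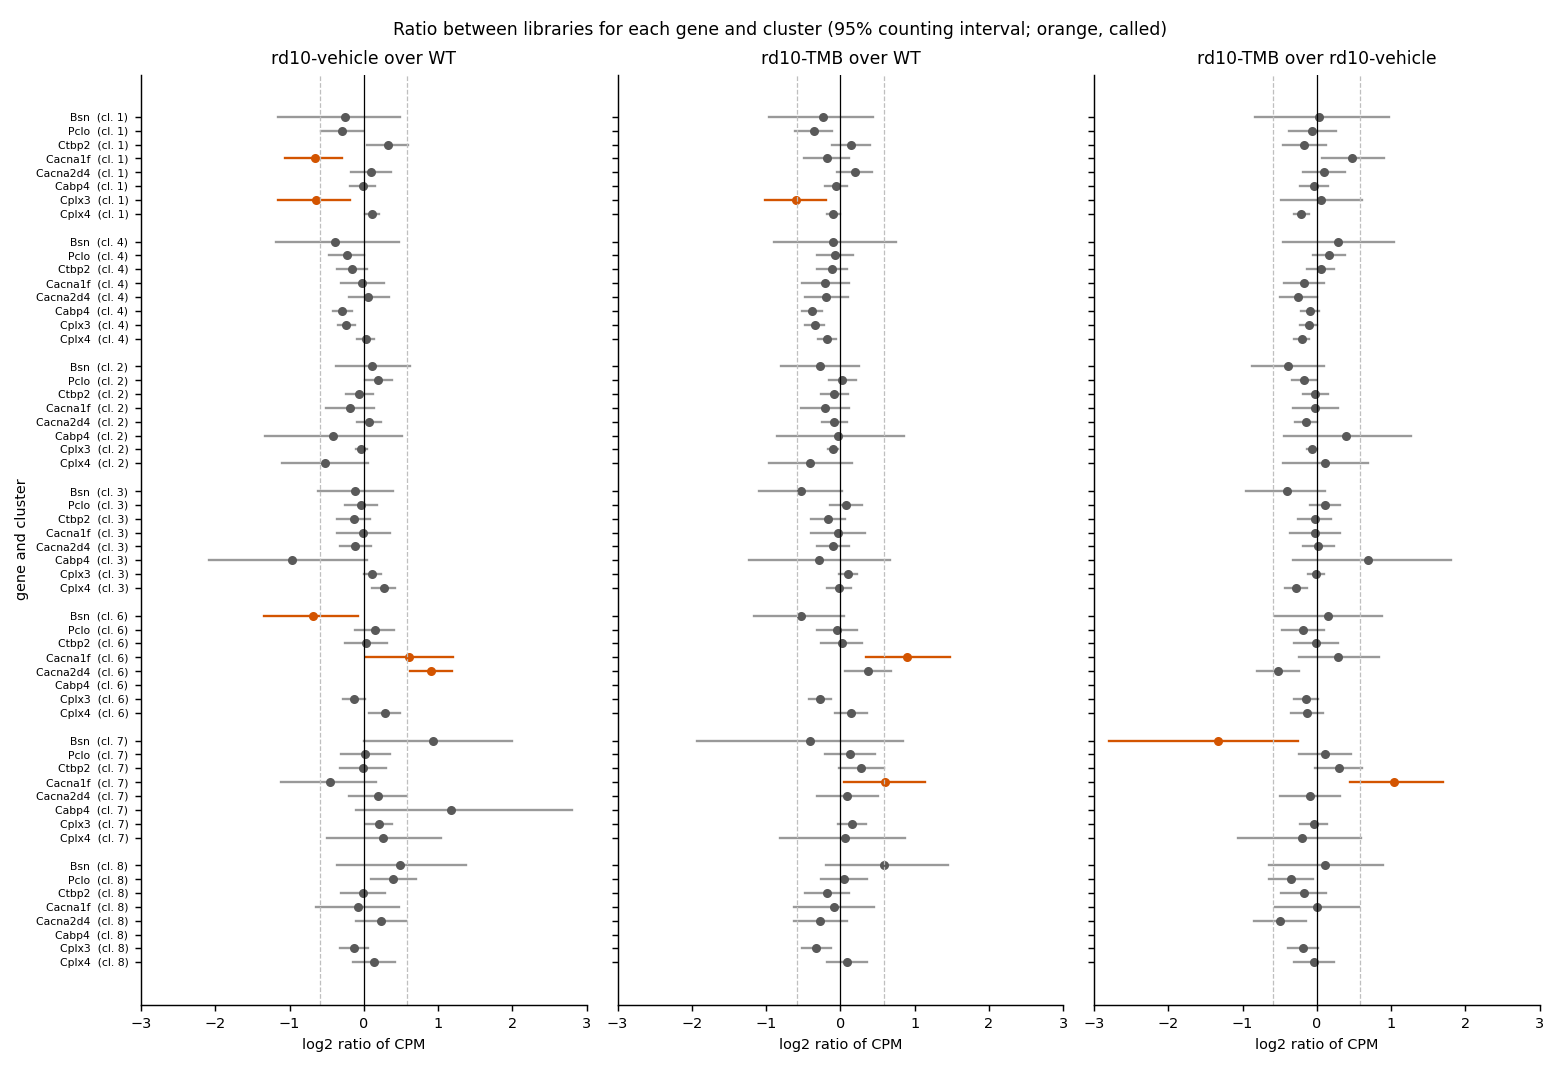
Log2 ratio of CPM between libraries for each gene and cluster with its exact 95% interval; orange marks called pairs, dashed lines mark 1.5-fold, and pairs under 20 UMIs are left blank. Called pairs number 5, 3 and 2 in the 3 panels, where 7.58%, 7.17% and 3.56% of all pairs of gene and cluster were called, and lie in clusters 1, 6 and 7.

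Transcript of rods was also present in the bipolar clusters, and was highest in WT in clusters 2, 3, 6 and 8 and in rd10-TMB in cluster 7. The 8 rod markers summed in cluster 3 to 1551 CPM in WT against 614 in rd10-vehicle and 1220 in rd10-TMB, and in RBCs to 826, 448 and 737 CPM. In the same RBCs Cplx4, the member with the highest level in rods, was at 28.0, 19.5 and 21.1 CPM. The part of such transcript in the small Cplx4 and Cabp4 levels of bipolar cells was not tested. The 6 MG markers summed to 78.9 to 359 CPM over the 7 clusters in WT, 320 to 687 CPM in rd10-vehicle and 241 to 598 CPM in rd10-TMB, and in each of these clusters both rd10 libraries were above WT.

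A list of 37 other synapse genes was examined beside the members: 23 of the presynaptic vesicle and active zone, 6 of calcium channels and calcium binding, and 8 of synaptic adhesion. Among the vesicle and active zone genes, 3 of 136 pairs of gene and cluster were higher and 3 lower for rd10-vehicle over WT, 1 higher and 7 lower for rd10-TMB over WT, and 0 higher and 2 lower of 132 for rd10-TMB over rd10-vehicle. Among the calcium genes the counts were 1 higher and 5 lower of 36, 3 higher and 7 lower of 36, and 2 higher and 2 lower of 34. Among the adhesion genes they were 0 higher and 3 lower of 42, 1 higher and 4 lower of 41, and 1 higher and 1 lower of 39. As shares, 4.41%, 5.88% and 1.52% of the vesicle and active zone pairs, 16.7%, 27.8% and 11.8% of the calcium pairs and 7.14%, 12.2% and 5.13% of the adhesion pairs were called in these comparisons. Over all genes and the 7 clusters the shares were 7.58%, 7.17% and 3.56%, as above.

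In rods the genes called lower in both rd10 libraries were Lin7a, a scaffold protein, Cplx2, a complexin of conventional synapses, Cabp1, a calcium-binding protein, and Nrxn3, a presynaptic adhesion receptor. Nrxn3 was at 75.6 CPM in WT rods, 39.5 in rd10-vehicle and 33.2 in rd10-TMB, and the other named genes were at 19.5 to 22.2 CPM in WT. The amacrine marker levels given above for rods moved with these genes, and their part was not tested. In cones Nrxn3 was at 99.4 CPM in rd10-vehicle, 72.3 in WT and 38.2 in rd10-TMB, with a log2 ratio of rd10-TMB over rd10-vehicle of -1.37 (-1.76 to -1.02). Lrit2, a leucine-rich repeat membrane protein, was lower in rd10-TMB cones than in WT cones, with a log2 ratio of -0.68 (-1.05 to -0.31).

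Among the calls in bipolar clusters were several genes of calcium handling. In cluster 7, Cabp5, a calcium-binding protein of bipolar cells, was higher in both rd10 libraries, at 920 CPM in rd10-vehicle and 1027 in rd10-TMB against 570 in WT. Cabp2, a relative of Cabp4, was lower there, at 93.3, 17.9 and 10.7 CPM in WT, rd10-vehicle and rd10-TMB, and Cacna2d3, an auxiliary channel subunit, likewise, at 177, 91.8 and 104 CPM. In cluster 3, Cabp1 was at 191, 107 and 118 CPM. Like Cabp2, Cacna2d3 and Cabp1, and unlike Cabp5, the 8 amacrine markers were lower in both rd10 libraries. They summed to 171, 43.4 and 27.6 CPM in cluster 3 and to 83.4, 31.3 and 13.3 CPM in cluster 7, and their part was not tested. In cluster 6, Unc119, a protein of photoreceptor and bipolar synapses, was higher in both rd10 libraries, at 1116, 1723 and 1813 CPM, and Elfn1, an adhesion protein, had 31 UMIs from WT cells and 0 from either rd10 library. The amacrine markers of cluster 6, at 2073, 163 and 128 CPM in WT, rd10-vehicle and rd10-TMB, moved with Elfn1 and against Unc119. Their part in both differences was not tested.

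The genes most alike to each member were found by Pearson correlation of log2(CPM + 1) over 21 points, the 7 clusters in 3 libraries, among 6933 genes. The points share libraries and clusters, so the values are descriptions. Cabp4 had the closest partners: Rtbdn (r = 0.99), Impg2 (0.99) and Rhot1 (0.98). Rtbdn lay at 1205 to 1755 CPM in rods and cones and at 17.2 to 71.5 CPM in the bipolar clusters, and Impg2 at 250 to 330 CPM and 5.60 to 23.0 CPM. Cplx3 was most like Gm4792 (0.97), Asic4 (0.97) and Slc49a4 (0.97), and Pclo most like Prkcb (0.96), Gucy1a1 (0.96) and Pnmal1 (0.96).

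The remaining members had less close partners. Cplx4 was nearest to Mmd2 (0.93), Map1b (0.88) and Jam2 (0.87), Bsn to Arid4b (0.91), Kcnb2 (0.90) and March6 (0.90), and Cacna2d4 to Otx2 (0.91), Pfkp (0.91) and Cyth1 (0.90). Otx2 is a homeodomain factor of photoreceptors and bipolar cells. Genes like Ctbp2 included Efnb1 (0.91) and Rnd2 (0.91). Those like Cacna1f were less close, and included Atl2 (0.75) and Nup98 (0.73). Among the members themselves, Pclo went with Ctbp2 (0.78) and Bsn (0.77), and Cabp4 ran against Pclo (-0.83), while Cplx3 and Cplx4 ran against each other (-0.66).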

How the data were processed

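Dissociated retinal cells were profiled with 10x 3′ v3 chemistry in 3 libraries. The authors, as the labels and the methods of the study state, aligned reads to mm10 and counted UMIs with Cell Ranger 6.0.1, removed doublets with Scrublet, kept cells with at least 500 genes, normalized in Seurat 3.2.2 and clustered after Harmony integration. The expression matrix was deposited on a natural log scale: the authors divided each gene by its cell's total, multiplied by 10000, added 1 and took the log. A column of summed UMI counts per cell, also deposited by the authors, allowed the scale to be undone, and all 32620606 matrix entries came out as whole UMIs within 0.001. The authors' cluster numbers were used as deposited.

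UMIs were summed per cluster and library, scaled to CPM, and compared as log2 ratios with a pseudocount of 1 UMI. Exact Poisson intervals were given for sums, conditional binomial intervals for ratios and Clopper-Pearson intervals for shares, all at 95% and for counting error only. Depth was 18882951 to 37002532 UMIs per library. Each of the 3 groups was 1 library, so no test was made. Marker support meant at least 2-fold over all remaining cells and at least 20 CPM. Named genes were the members with at least 20 UMIs in a comparison, called genes of the synapse lists, and the 3 genes most alike to each member among those with a mean of at least 20 CPM, of which some are not reported here. The members and lists were chosen with earlier results of these data known. The ratio script was tested on simulated data. Alternatives covered scaling, pseudocount, UMI minimum, cell filters, thinning, glial background and fold limits. Python 3.11.15, numpy 2.4.6, scipy 1.17.1, pandas 2.3.3 and matplotlib 3.10.9 were used.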

Additional observations from a re-analysis of the deposited data

Results flagged for a closer look

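Cacna1f moved in opposite directions in a pair of clusters for rd10-vehicle over WT, with a log2 ratio of -0.66 in rods and 0.61 in cluster 6. Both passed the call with 1 library per group, and the difference between the clusters was not tested. Without cells with a UMI of Tfap2a, Tfap2b, Gad1, Gad2 or Slc32a1, the values were -0.72 in rods and 0.19 in cluster 6.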

How the results depend on the processing

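No paired analysis was possible because each group was 1 library. Of 273 medians over the members, 272 stayed between the median of the members' lower limits and the median of their upper limits. This span is that of a typical single member, not the counting error of a median. Of 2080 ratios of single members, 2013 stayed within their counting interval, and 0 called values changed sign. The UMI minimum settings leave a ratio as it is, so the 160 ratios under each stayed by construction. So did ratios between the rd10 libraries under the limit to WT cells with Xist. The exception among the medians was cluster 7 for rd10-TMB over rd10-vehicle, at 0.46 over 6 members after thinning to 1000 UMIs.

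The counts of called pairs were less stable. The share of all genes called under the same setting stands in parentheses. For rd10-vehicle over WT the 5 (7.58%) became 2 with a mean over cells (7.8%), 3 without the 5% of cells with the most UMIs (7.28%), 2 without cells with an amacrine UMI (6.79%) and 0 at a fold limit of 2 (3.82%). For rd10-TMB over WT the 3 (7.17%) became 1 after removal of cells above 10% mitochondrial UMIs (6.76%), 0 without cells with an amacrine UMI (6.28%), 8 at the lower fold limit tried (11.6%) and 0 at a fold limit of 2 (3.37%). For rd10-TMB over rd10-vehicle the 2 (3.56%) became 4 with a mean over cells (3.41%), 0 at a minimum of 100 UMIs (1.98%), 1 in cells with at least 1000 genes (3.55%), 1 at the mitochondrial limit (3.58%) and 6 at the lower fold limit (5.6%). The amacrine alternative was chosen after seeing the data. By construction, a fold limit or a UMI minimum changes which pairs can be called, and the cause of the other changes was not tested.

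Of the 13 alternative settings of the ratios, Cacna2d4 in cluster 6 kept its call in 12, Cacna1f in rods in 11, Cplx3 in rods in 9, Bsn in cluster 6 in 8 and Cacna1f in cluster 6 in 7 for rd10-vehicle over WT. For rd10-TMB over WT, Cacna1f kept its call in 11 in cluster 6 and in 8 in cluster 7, and Cplx3 in rods in 5. For rd10-TMB over rd10-vehicle, Cacna1f in cluster 7 kept it in 11 and Bsn in 10. Dropping the UMI minimum cannot end a call, and the limit to WT cells with Xist cannot end one between the rd10 libraries. The counts are therefore not compared between these comparisons. The cluster order of levels kept its leading cluster in 20 of 24 pairs of member and library with a mean over cells. The leading cluster by share of cells was kept in 10 of 24 pairs when cells were not thinned. Intervals cover counting error only, and differences between mice could not be measured.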
